A study of Mus musculus with 36 samples.

Results

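The genes described here handle iron, heme and metals. The 10 genes were chosen by symbol from the 46078 genes in the deposited count files, and each was read in all 12 groups of the series. They are Hmox1 and Blvrb (heme breakdown), Fth1 and Ftl1 (iron storage), Tfrc and Slc11a2 (iron uptake), Slc40a1 (iron export), and Mt1, Mt2 and Slc30a1 (zinc buffering and export). RM-1-BM, a mouse prostate cancer line, was transduced with SPOP F133V, a mutant of the protein that brings substrates to a CUL3 ubiquitin ligase, or with an empty control vector. These cancer cells were grown alone or in transwell coculture with RAW264.7, a mouse macrophage line, and received olaparib, a PARP inhibitor, or its vehicle DMSO. The 24 cancer libraries form 8 groups, covering each mix of genotype (vector, F133V), culture (alone, coculture) and treatment (DMSO, olaparib). The 12 macrophage libraries form 4 groups (vector or F133V partner, DMSO or olaparib). Each group has 3 libraries. Every cancer group, controls included, is a transduced form of a single line. The labels do not say whether the transduced cells are a clone or a pool, give no dose or time, and do not tell if a group's libraries are from separate cultures. The p-values therefore measure only the spread between these libraries. The macrophages all came from cocultures, so each macrophage comparison is between cocultures. For macrophages opposite F133V cells with olaparib the labels conflict, since their group entry names F133V and their genotype entry wild type. The F133V partner of that group is taken from the group entry.

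Heme oxygenase 1, made from Hmox1, opens the heme ring and releases iron, carbon monoxide and biliverdin, and biliverdin reductases such as that of Blvrb reduce biliverdins. Freed iron is stored in ferritin shells built from the heavy chain (Fth1) and the light chain (Ftl1), or leaves the cell through ferroportin (Slc40a1). Iron enters bound to transferrin through its receptor (Tfrc) and crosses the endosomal membrane through DMT1 (Slc11a2). Iron regulatory proteins bind hairpins called iron-responsive elements in several of these mRNAs, and Nfe2l2 (NRF2) and Bach1 act in opposite directions on Hmox1 and the ferritin genes. Metallothioneins (Mt1, Mt2) bind zinc and copper, and Slc30a1 exports zinc at the plasma membrane, all under the zinc-sensing factor MTF1. Macrophages are known for recycling heme iron.

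Gene counts per library ran from 30292309 to 43062440. Levels are CPM, counts scaled to a common library size, with TMM normalization within a cell type, and a gene was called in a comparison at an adjusted p under 0.05 in edgeR's quasi-likelihood test over all genes tested. All 10 genes passed the filter on low counts in every fit. Replicate 1 of F133V coculture with DMSO, replicate 2 of the macrophages opposite F133V cells with DMSO and replicate 3 of F133V cells alone with olaparib stood apart from the other libraries of their groups. The mean chi-square per gene was 18.0 and 11.8 for the pairs with the first against 2.80 for the other pair, 14.9 and 14.1 against 2.31 for the second, and 9.80 and 16.6 against 5.58 for the third. The share of reads in no gene was 20.9% in the first against 17.1% and 18.2%, and 17.3% in the second against 19.8% and 20.0%. Their part in the results was tested by leaving each out, and values that it moved are given beside the result. Of 15 macrophage markers, the summed level was 13.3 to 31.8 CPM in cancer groups and 14900 to 17200 CPM in macrophage groups. Replicates 1 and 2 of vector cells alone with DMSO held Lyz2, a macrophage lysozyme, at 3.36 and 4.34 CPM, against 0.689 CPM in replicate 3. Macrophage RNA at the Lyz2 level could account for at most 0.434% of the level of any of the 10 genes in any cancer library. Labelled as prostate cancer cells, the cancer groups had Cdh1 and Epcam, which encode epithelial adhesion proteins, under 1 CPM. Of the simple keratins, Krt18 lay between 61.5 and 349 CPM in group means, and Krt8 was under 1 CPM in the F133V groups. Epithelial adhesion markers are thus nearly absent, and the cells are called cancer cells here only by their label.

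Several transcripts of this gene group carry the hairpins that iron regulatory proteins bind, shown because storage, export and uptake of iron are known to be set through them. Hairpins in a 5′ UTR control translation, which RNA counts do not read, and those in the 3′ UTR of Tfrc control how long the mRNA lasts. A search of GENCODE M21 transcripts (GRCm38) for a C bulge and a 6-base CAGTGN loop whose last base was A, C or T, closed by 5 pairs with G–T pairs allowed, found 7 sites in 4 of the 10 genes. The 17-base sites are printed 5′ to 3′ on the transcript strand with the loop in capitals.
Fth1 5′ UTR (chr19:9982738-9982754, plus strand): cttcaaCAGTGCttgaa
Ftl1 5′ UTR (chr7:45459785-45459801, minus strand): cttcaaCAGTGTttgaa
Slc40a1 5′ UTR (chr1:45925471-45925487, minus strand): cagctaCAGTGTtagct
Tfrc 3′ UTR (chr16:32631225-32631241, plus strand): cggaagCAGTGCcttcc
Tfrc 3′ UTR (chr16:32631604-32631620, plus strand): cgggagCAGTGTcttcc
Tfrc 3′ UTR (chr16:32631669-32631685, plus strand): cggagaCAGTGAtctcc
Tfrc 3′ UTR (chr16:32631716-32631732, plus strand): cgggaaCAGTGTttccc
Such a match was present in the 5′ UTRs of 23 of 22527 genes (0.102%) and in the 3′ UTRs of 110 (0.488%). Fth1, Ftl1 and Slc40a1, for iron storage and export, each had 1 site in the 5′ UTR, while Tfrc, for uptake, had 4 in the 3′ UTR. The search allowed no bulge or mismatch within the 5 pairs, so elements with one were missed. Genes without a match, Slc11a2 among them, may still hold an element, and Tfrc may hold more. The Fth1 site lay in 4 of 5 coding transcripts and the Ftl1 site in 2 of 3, while the Slc40a1 site lay in 1 of 4 and each of the Tfrc sites in 1 of 3.

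Upstream windows of the zinc-handling genes are shown because Slc30a1 and Mt1 were higher in F133V than in vector coculture with DMSO, and so was Mt2 except with scaling by library size alone. RefSeq promoter windows (GRCm38.p6) were held for 7 of the 10 genes, and not for Hmox1, Slc40a1 or Slc11a2. The bases within 250 upstream of the RefSeq start were searched on both strands for cores of the metal response element (TGCACNC or TGCGCNC) and of the antioxidant response element (TGACNNNGC). Matches are in capitals. The windows of Mt1 and Slc30a1 are printed up to the base before the annotated gene start, and that of Mt2 up to the base before the RefSeq start, which lies upstream of the annotated one.
Mt1 (chr8:94178839-94179081, plus strand): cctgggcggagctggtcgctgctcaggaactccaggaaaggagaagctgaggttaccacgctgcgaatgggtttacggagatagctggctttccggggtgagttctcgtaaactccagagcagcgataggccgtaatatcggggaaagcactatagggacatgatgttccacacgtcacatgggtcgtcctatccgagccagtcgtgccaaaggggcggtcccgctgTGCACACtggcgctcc
Mt2 (chr8:94172368-94172617, plus strand): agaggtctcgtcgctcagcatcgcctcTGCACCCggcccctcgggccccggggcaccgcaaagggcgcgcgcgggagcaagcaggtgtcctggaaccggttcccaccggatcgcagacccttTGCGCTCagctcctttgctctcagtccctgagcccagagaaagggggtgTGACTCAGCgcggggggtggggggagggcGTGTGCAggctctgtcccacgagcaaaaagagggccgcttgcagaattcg
Slc30a1 (chr1:191906531-191906766, plus strand): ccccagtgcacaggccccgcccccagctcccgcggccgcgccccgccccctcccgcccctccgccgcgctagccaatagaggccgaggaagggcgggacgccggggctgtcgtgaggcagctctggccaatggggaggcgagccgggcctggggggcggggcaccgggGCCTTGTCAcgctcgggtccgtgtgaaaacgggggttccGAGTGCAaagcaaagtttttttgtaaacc
Within these windows Mt1 held 1 metal response core, Mt2 held 3 and Slc30a1 held 1, and Mt2 and Slc30a1 each held 1 antioxidant response core. Of the other genes with windows, which are not printed, Tfrc held 2 metal response matches that overlap each other. Blvrb, Fth1 and Ftl1 held no match to any of these cores. The metal response cores were thus not particular to the zinc-handling genes. Bases downstream of the RefSeq start were not searched, so the counts do not rank the genes by all their metal response elements. No 2 printed matches overlap. Of 32851 windows of this length, 10.4% held TGCACNC, 12.5% held TGCGCNC, 21.4% held either, 1.26% held at least 3 matches to the metal response cores, and 10.2% held TGACNNNGC. These are matches of letters in a window, and no binding was measured.

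Compared per kilobase of exon, the ferritin genes were the most abundant of the group. The median of the 12 group means was 1530 RPKM for Ftl1 and 1480 RPKM for Fth1, and the ranges of the groups overlapped (1180 to 2990 and 809 to 2480). Mt2 (342), Mt1 (186) and Hmox1 (122) followed on this RPKM scale, with Tfrc at 38.3, and of these neighbours only Mt1 and Hmox1 had overlapping group ranges. Slc11a2 (7.1), Slc30a1 (4.97), Slc40a1 (3.79) and Blvrb (3.41) were lowest, and the group ranges of these 4 overlapped. RPKM used the length of all annotated exons, which is approximate where a gene has rarely used exons. The order within the ferritin and metallothionein pairs depends on these lengths, 3469 bases for Fth1, 1340 for Ftl1, 1246 for Mt1 and 588 for Mt2. In CPM, without lengths, Fth1 was above Ftl1 and Mt1 above Mt2 in every group. F133V coculture with DMSO held the highest group mean of Hmox1, Slc40a1, Slc30a1, Tfrc, Mt1 and Mt2, and the lowest of Slc11a2. For Tfrc and Mt2 this order holds with TMM normalization, since with library size scaling neither was higher in this group than in vector coculture with DMSO. The lead of Mt1 was small, at 251 RPKM (246 to 259) beside 246 RPKM (240 to 251) in vector cells alone with olaparib. Those groups overlapped and were not compared by a test. The same held for Slc11a2, lowest at 4.96 RPKM (4.57 to 5.43) beside 5.12 RPKM (5.0 to 5.36) in vector cells alone with olaparib. Macrophages opposite F133V cells with DMSO held the lowest of Hmox1, Mt1 and Mt2, and with olaparib the highest of Fth1, Ftl1, Slc11a2 and Blvrb. Libraries overlapped for some of these ranks, and the pairs were not tested. The lowest Hmox1 was 73.1 RPKM beside 73.7 RPKM in vector cells alone with DMSO. The lowest Mt2 was 253 RPKM beside 270 RPKM in F133V cells alone with olaparib. The highest Blvrb was 7.66 RPKM beside 6.94 RPKM in F133V coculture with DMSO.

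**Figure D1:**
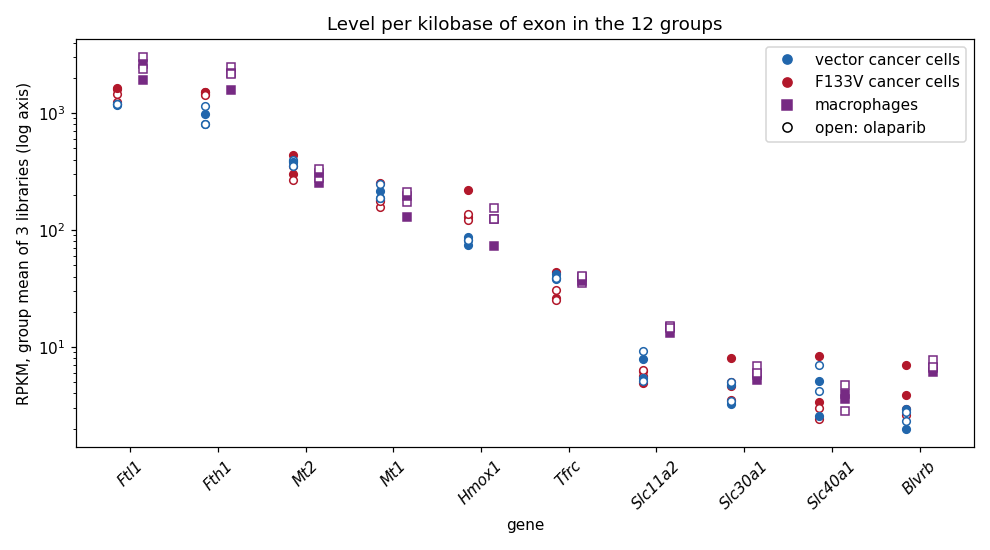
Level of each gene per kilobase of exon (RPKM, log axis), 1 point per group mean of 3 libraries. Circles are cancer groups (blue vector, red F133V), squares are macrophage groups, and open symbols are olaparib. Ftl1 and Fth1 lie at 809 RPKM or more in all groups, and Blvrb, Slc40a1 and Slc30a1 lie below 10.

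F133V cells cocultured with macrophages under DMSO had the highest heme oxygenase, ferroportin and zinc exporter transcripts of all cancer groups. Hmox1 read 406, 416 and 403 CPM in these F133V libraries and 155, 152 and 154 CPM in vector cocultures. The groups were far apart, with a log2 difference of 1.41 ± 0.02 (SE, n = 3 against 3, adjusted p = 1.4e-36). Blvrb read 19.5, 21.8 and 20.1 CPM against 8.31, 7.98 and 8.43 CPM, a log2 difference of 1.32 ± 0.07 (adjusted p = 1.1e-20). Every F133V coculture library was thus more than 2 times as high as any vector coculture library for both heme breakdown genes. In bulk RNA, fewer cells expressing a gene and less RNA per cell cannot be told apart. Of the 10 genes, 9 were higher and 1 was lower, where 79.5% of all 15962 genes were called in this comparison, so the number called is not a result about this gene group. The median log2 difference of the 10 was 0.59, beside -0.06 over all genes tested. Without regard to sign the median size was 0.635 for the 10 and 0.655 for all genes, so their differences were not larger than those of other genes. With scaling by library size alone the median of all genes moved by -0.25, and 34.7% of called genes were higher in place of 47.1%.

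The ferritin genes rose less than the heme breakdown genes in this comparison. Fth1 read 5485, 5703 and 5505 CPM in F133V cocultures and 3520, 3432 and 3511 CPM in vector cocultures (log2 difference 0.67 ± 0.02, adjusted p = 5.7e-26). Ftl1 read 2279, 2404 and 2264 CPM against 1647, 1629 and 1637 CPM (0.50 ± 0.03, adjusted p = 1.1e-16). Scaling by library size gave log2 differences of 0.42 for Fth1 and 0.25 for Ftl1, both still called. Neither gene's libraries overlapped between groups. The exporter Slc40a1 had the largest difference of the 10 genes. It read 77.8, 82.4 and 79.3 CPM in F133V cocultures against 22.3, 23.3 and 24.2 CPM in vector cocultures, a log2 difference of 1.78 ± 0.05 (adjusted p = 9.7e-30). All F133V libraries were more than 3 times as high as any vector library.

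The uptake genes differed from the storage and export genes. Slc11a2 was the gene that fell, reading 33.0, 36.5 and 30.8 CPM in F133V cocultures against 50.8, 49.4 and 52.0 CPM in vector cocultures (log2 difference -0.59 ± 0.04, adjusted p = 2e-15). Tfrc read 278, 285 and 296 CPM against 257, 273 and 267 CPM, a log2 difference of 0.11 ± 0.03 (adjusted p = 0.0041) that turned to -0.14 with library size scaling. Without replicate 3 of the F133V coculture the Tfrc difference was 0.08 and was not called (adjusted p = 0.0598). The direction of Tfrc therefore depends on the scaling.

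Among the zinc-handling genes Slc30a1 rose most. It read 45.9, 43.5 and 44.5 CPM in F133V cocultures and 16.9, 18.2 and 17.3 CPM in vector cocultures (log2 difference 1.35 ± 0.05, adjusted p = 4.1e-24). Mt1 read 325, 342 and 328 CPM against 242, 231 and 233 CPM (0.49 ± 0.03, adjusted p = 1e-17; 0.24 with library size scaling, still called). The metallothionein Mt2 read 266, 279 and 269 CPM against 227, 230.1 and 233 CPM, a log2 difference of 0.24 ± 0.04 (adjusted p = 7.8e-07) that was -0.01 and not called with library size scaling. With TMM normalization the F133V libraries of all 3 genes lay above every vector library, in a comparison where 79.5% of all genes were called. For Mt2 this order does not hold with library size scaling. Mt1 and Mt2 are neighbours on chromosome 8.

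**Figure D2:**
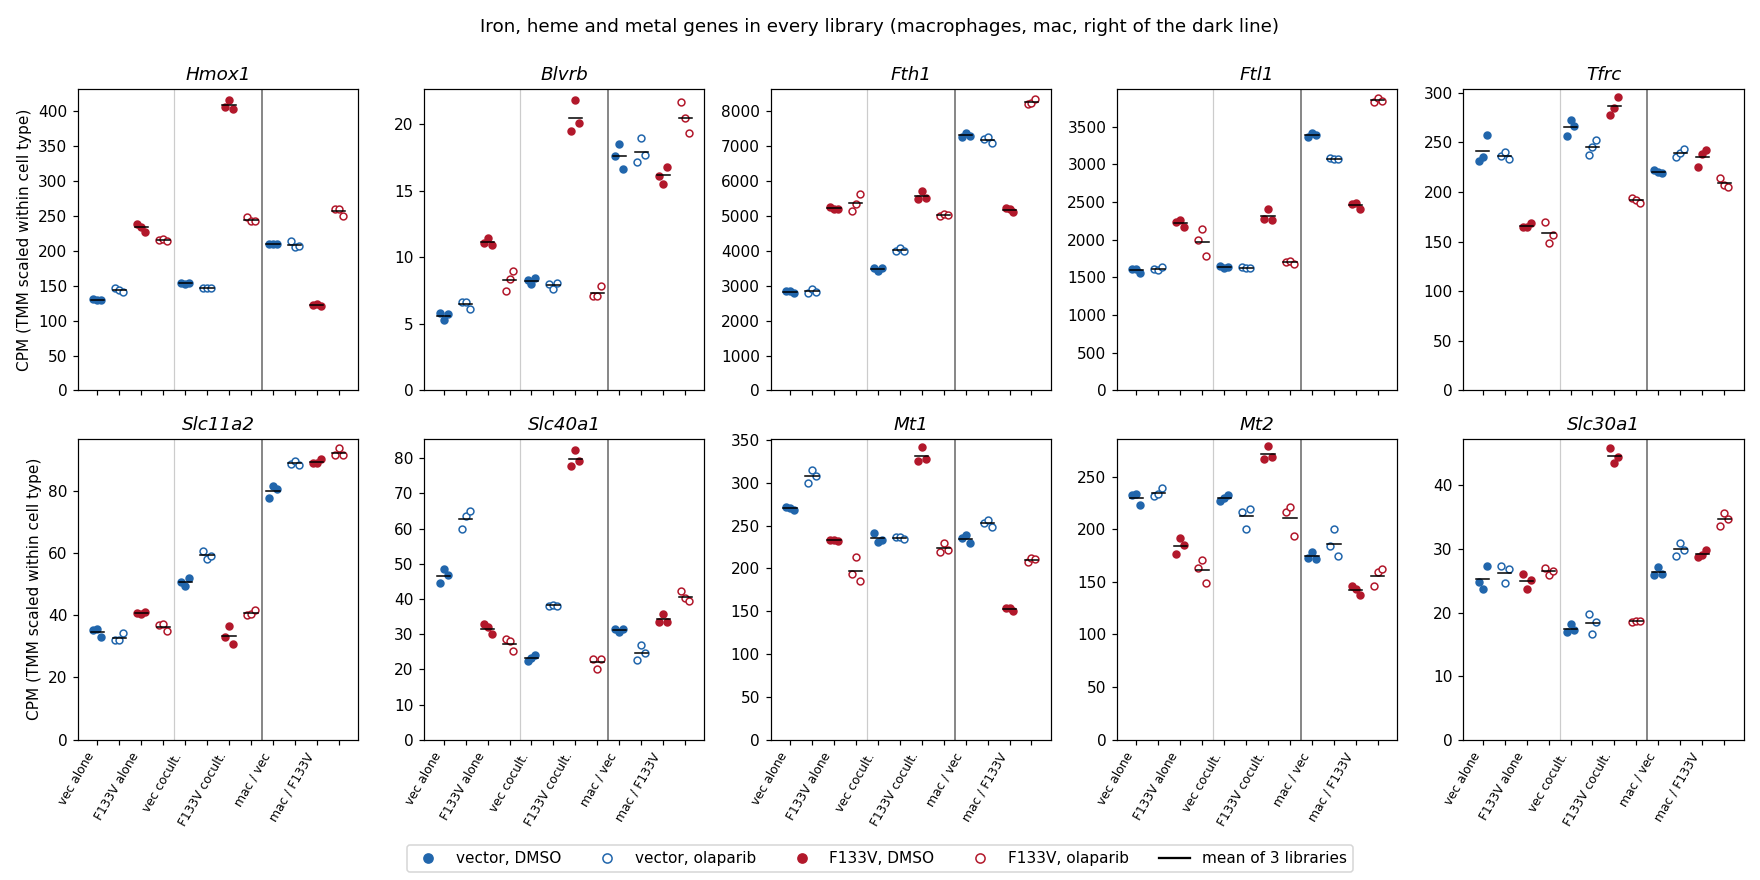
CPM of the 10 genes in every library (TMM scaled within a cell type, linear axes from 0), with 1 point per library and a line at each group mean. Within each pair of columns the filled points are DMSO and the open points olaparib; macrophages (mac) stand right of the dark line. Hmox1, Slc40a1 and Slc30a1 are highest in the 3 F133V cocultures with DMSO (403 to 416 CPM for Hmox1), and Hmox1 is lowest in the macrophages opposite them (121 to 124 CPM) among the macrophage libraries.

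Other genes of iron and heme metabolism went both ways in the same comparison, where 79.5% of all genes were called. Counts and medians of the pathway lists, here and below, were run with TMM normalization only. Library size scaling moved the median of all genes in this comparison by -0.25. Of 17 tested genes of iron uptake, export and control, 10 were higher and 7 lower (median log2 difference 0.27). Cp, the ferroxidase ceruloplasmin, had a group mean of 8.42 CPM in F133V and 63.3 CPM in vector cocultures (-2.90 ± 0.05, adjusted p = 1.5e-35). Pcbp2, an iron chaperone and RNA-binding protein, rose by 0.99 ± 0.02 on the log2 scale (adjusted p = 1.9e-32), and Slc25a37, mitoferrin 1, by 1.10 ± 0.03 (adjusted p = 1.5e-31). Of 11 genes of heme synthesis 2 were higher and 7 lower (median -0.75). Ppox, a late enzyme of that path, changed by -1.13 ± 0.05 (adjusted p = 1.2e-21), while Alad, an early enzyme, changed by 1.08 ± 0.05 (adjusted p = 1.4e-21). Heme synthesis thus had more genes lower, beside a median of -0.06 over all genes.

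Of 10 genes of heme breakdown and transport, 4 were higher and 5 lower (median -0.30). Slc48a1, which moves heme out of endosomes and lysosomes, rose by 1.27 ± 0.03 (adjusted p = 9.7e-32), Flvcr1, a heme exporter listed in the files as Mfsd7b, by 1.26 ± 0.04 (adjusted p = 1.3e-28), and the heme-binding Pgrmc1 by 0.74 ± 0.03 (adjusted p = 6.4e-26). Of 18 genes of iron-sulfur cluster assembly 5 were higher and 11 lower (median -0.28). Among them the chaperone Hspa9 changed by 0.60 ± 0.02 (adjusted p = 1.7e-26), Fdx2 (Fdx1l in the files) by 1.12 ± 0.05 (adjusted p = 3.2e-22) and Nfu1 by -0.92 ± 0.04 (adjusted p = 1.4e-21). These 2 lists were mixed in direction.

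Of 18 other genes of zinc transport and metallothionein, 6 were higher and 10 lower (median -0.44). The zinc importer Slc39a6 rose by 1.04 ± 0.02 (adjusted p = 4.2e-33), and Slc39a13 and Slc30a7, zinc transporters of internal membranes, changed by -1.21 ± 0.05 (adjusted p = 3.9e-23) and -0.68 ± 0.04 (adjusted p = 6.2e-20). Of 10 genes of copper handling 3 were higher and 6 lower (median -0.28). The copper transporters Slc31a2 and Slc31a1 changed by -1.66 ± 0.10 (adjusted p = 7.4e-18) and -0.49 ± 0.03 (adjusted p = 4.5e-17), and Sco1, a copper chaperone of cytochrome oxidase, by 0.71 ± 0.05 (adjusted p = 2.3e-16). The rise of Slc30a1 was therefore not shared by the zinc list as a whole.

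All 6 regulators of Hmox1 and ferritin transcription were higher in F133V cocultures (median 1.30), where 79.5% of all genes were called. Bach1, a repressor of Hmox1 that heme inactivates, had group means of 262 CPM in F133V and 76.8 CPM in vector cocultures (1.77 ± 0.03, adjusted p = 7.2e-37). The small Maf partners Mafg and Maff rose by 1.43 ± 0.02 (adjusted p = 5.2e-36) and 1.50 ± 0.03 (adjusted p = 4.1e-33). The list holds the activator Nfe2l2, its inhibitor Keap1 and the repressor Bach1, so its count gives no direction for their targets.

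F133V cells grown alone with DMSO differed from vector cells at 9 of the 10 genes, 5 higher and 4 lower, where 67.7% of all genes were called. Hmox1 read 239, 235 and 227 CPM in F133V cells and 132, 129.5 and 129.7 CPM in vector cells (log2 difference 0.84 ± 0.02, adjusted p = 1.3e-28). Blvrb (0.99 ± 0.07, adjusted p = 9.2e-15), Fth1 (0.88 ± 0.02, adjusted p = 2.3e-29) and Ftl1 (0.48 ± 0.03, adjusted p = 9.5e-16) were also higher, as was Slc11a2 (0.23 ± 0.04, adjusted p = 1.7e-05; 0.14 with library size scaling, still called). Heme breakdown and ferritin genes were thus higher in F133V cells with DMSO both alone and in coculture. The export, uptake and metallothionein genes went the other way than in coculture, where Tfrc and Mt2 depended on the scaling. Slc40a1 read 32.8, 32.1 and 29.9 CPM in F133V cells and 44.6, 48.4 and 46.8 CPM in vector cells (-0.56 ± 0.05, adjusted p = 1.9e-13). Tfrc (-0.54 ± 0.04), Mt2 (-0.32 ± 0.04) and Mt1 (-0.21 ± 0.03) were lower as well, and Slc30a1 was not called (-0.02 ± 0.05, adjusted p = 0.79). The median of the 10 was 0.11, beside 0.00 over all genes, and without regard to sign the median size was 0.508 beside 0.37.

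Olaparib-treated F133V cells alone kept the same directions against vector cells treated alike. Again 5 genes were higher and 4 lower, where 67.4% of all genes were called. Hmox1 differed by 0.58 ± 0.02 (adjusted p = 2.5e-23) and Fth1 by 0.92 ± 0.02 (adjusted p = 5.8e-30), and Slc40a1 by -1.20 ± 0.05 (adjusted p = 1e-23). In coculture with olaparib 2 genes were higher and 4 lower, where 60% of all genes were called. Hmox1 read 248, 243 and 242 CPM in F133V cells against 146, 147 and 146 CPM in vector cells (0.74 ± 0.02, adjusted p = 1.4e-26), and Fth1 was higher by 0.32 ± 0.02 (adjusted p = 3.8e-15). Slc40a1 was lower (23.0, 20.1 and 23.1 CPM against 38.1, 38.4 and 38.1 CPM, -0.79 ± 0.05, adjusted p = 6.8e-17), with Slc11a2 (-0.54 ± 0.04) and Tfrc (-0.35 ± 0.04). The call of Mt1 (-0.08 ± 0.03, adjusted p = 0.032) was lost with RLE scaling, with DESeq2 and without any of 5 libraries (adjusted p up to 0.178). Slc40a1 was therefore higher in F133V than in vector cells in 1 of the 4 matched settings, coculture with DMSO. Blvrb (-0.10 ± 0.07), Ftl1 (0.06 ± 0.03), Mt2 (-0.01 ± 0.04) and Slc30a1 (0.02 ± 0.06) were not called.

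Coculture changed these genes differently in vector and F133V cells. In vector cells with DMSO, coculture against culture alone called 8 genes, 5 higher and 3 lower, where 42% of all genes were called. Slc40a1 fell from 44.6, 48.4 and 46.8 CPM alone to 22.3, 23.3 and 24.2 CPM in coculture (-1.004 ± 0.05, adjusted p = 9e-20), and Slc30a1 fell by 0.53 ± 0.06 on the log2 scale (adjusted p = 2.8e-10). In F133V cells with DMSO 8 genes were higher and 1 lower, where 70.3% of all genes were called. There Slc40a1 rose from 32.8, 32.1 and 29.9 CPM to 77.8, 82.4 and 79.3 CPM (1.34 ± 0.05, adjusted p = 1.4e-25), and Slc30a1 rose from 26.0, 23.8 and 25.2 CPM to 45.9, 43.5 and 44.5 CPM (0.84 ± 0.05, adjusted p = 1e-17). The exporters of iron and of zinc thus moved in opposite directions with coculture in the 2 genotypes, and the libraries alone and in coculture did not overlap in either.

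Tfrc, the uptake receptor, rose with coculture in F133V cells from 165, 164.5 and 168 CPM to 278, 285 and 296 CPM (0.79 ± 0.04, adjusted p = 9.2e-22). In vector cells its difference was 0.14 ± 0.03 (adjusted p = 0.0011), the groups overlapped, and without the 2 libraries with Lyz2 above 3 CPM it was 0.05 and not called. Hmox1 rose in both, by 0.81 ± 0.02 in F133V (adjusted p = 2.1e-28) and 0.23 ± 0.02 in vector cells (adjusted p = 1.2e-10). Slc11a2 rose in vector cells (0.55 ± 0.04) and fell in F133V cells (-0.28 ± 0.04), and Mt1 fell in vector cells (-0.20 ± 0.03) and rose in F133V cells (0.51 ± 0.03). Scaling by library size gave F133V values of -0.49 for Slc11a2 and 0.30 for Mt1, and the rise of Fth1 in F133V cells, 0.09 ± 0.02, turned to -0.12.

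The difference between the genotypes in their response to coculture was itself called for 9 genes, 7 positive and 2 negative, where 62.7% of all genes were called. It was largest for Slc40a1 (2.34 ± 0.07, adjusted p = 2.3e-27) and Slc30a1 (1.37 ± 0.07, adjusted p = 1.2e-18), followed in size by Slc11a2 (-0.82 ± 0.06), Mt1 (0.71 ± 0.04), Tfrc (0.65 ± 0.05), Hmox1 (0.57 ± 0.03) and Mt2 (0.56 ± 0.06). The Blvrb value of 0.33 was 0.17 and not called with library size scaling (adjusted p = 0.155), and the Fth1 value of -0.21 was then -0.37. With olaparib, coculture called 3 genes higher and 4 lower in vector cells (44.1% of all genes called) and 5 higher and 4 lower in F133V cells (53.2% of all genes called). Slc40a1 was then lower in coculture in both, by -0.72 ± 0.04 in vector and -0.31 ± 0.05 in F133V cells, and so was Slc30a1 (-0.52 ± 0.06 and -0.51 ± 0.06). The rise of both exporters in F133V coculture was thus seen with DMSO and not with olaparib.

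Olaparib lowered most of these genes in the F133V coculture. Of the 10 genes 9 were lower and 1 higher than with DMSO, where 76.3% of all genes were called, and the median log2 change was -0.57 beside 0.02 over all genes. Without regard to sign the median size was 0.574 for the 10 and 0.575 for all genes, so the changes were of the usual size. Hmox1 went from 406, 416 and 403 CPM with DMSO to 248, 243 and 242 CPM with olaparib (-0.74 ± 0.02, adjusted p = 1e-27). Blvrb went from 19.5, 21.8 and 20.1 CPM to 7.10, 7.10 and 7.85 CPM (-1.48 ± 0.07, adjusted p = 4.1e-22). Both fell in every library, and Blvrb came to lie below the vector cocultures with DMSO (7.98 to 8.43 CPM).

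The iron exporter fell furthest with olaparib in this coculture, and the zinc exporter fell too. Slc40a1 went to 23.0, 20.1 and 23.1 CPM (-1.86 ± 0.05, adjusted p = 3.8e-30), and Slc30a1 went to 18.5, 18.7 and 18.7 CPM (-1.26 ± 0.05, adjusted p = 2.8e-23). These levels are close to the DMSO vector cocultures (22.3 to 24.2 and 16.9 to 18.2 CPM), though this pair of groups was not tested. Tfrc (-0.58 ± 0.04), Mt1 (-0.57 ± 0.03), Ftl1 (-0.45 ± 0.03) and Mt2 (-0.37 ± 0.04) fell as well, and Slc11a2 rose (0.28 ± 0.04, adjusted p = 5.5e-07). Fth1 fell by 0.15 ± 0.02 on the log2 scale (adjusted p = 4.2e-07), but its change was 0.06 with library size scaling, which moved the median of all genes by 0.21. With that scaling the other values were -0.24 for Ftl1, -0.37 for Tfrc, -0.36 for Mt1, -0.16 for Mt2 and 0.49 for Slc11a2, all still called. The regulators showed 0 higher and 6 lower of 6 (median -0.98), and heme synthesis 8 higher and 2 lower of 11 (median 0.40). This comparison shares its DMSO libraries with the genotype comparison above, so the mirrored signs are not separate evidence.

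In the other 3 cancer settings olaparib called fewer of these genes. In vector cells alone it called 4 genes, all higher, where 30.4% of all genes were called: Slc40a1 (0.43 ± 0.04, adjusted p = 1.6e-10), Mt1 (0.19 ± 0.03), Hmox1 (0.15 ± 0.02) and Blvrb (0.21 ± 0.08, adjusted p = 0.049). The Blvrb call was lost with library size scaling, with no filter, with DESeq2, with only the groups compared, without the 2 libraries with Lyz2 above 3 CPM and without any of 5 libraries (adjusted p up to 0.383). In F133V cells alone it called 7 genes, all lower, where 36.2% of all genes were called, led by Blvrb (11.1, 11.5 and 10.9 CPM with DMSO, 7.49, 8.40 and 8.95 CPM with olaparib, -0.43 ± 0.07, adjusted p = 5.7e-06). Under library size scaling 5 of these were still lower, Hmox1 (-0.04, adjusted p = 0.137) and Slc11a2 (-0.09, adjusted p = 0.0998) lost the call, Fth1 (0.11) and Slc30a1 (0.16) were called higher, and the share of called genes that were higher went from 50.5% to 74.6%. Without replicate 3 of the olaparib group Ftl1 changed by -0.10 in place of -0.17 and was still called. In vector coculture it called 3 higher and 3 lower, where 23.6% of all genes were called, and without replicate 2 of the DMSO group 3 of the 10 were called. Slc40a1 rose there from 22.3, 23.3 and 24.2 CPM to 38.1, 38.4 and 38.1 CPM (0.72 ± 0.05, adjusted p = 2.3e-14), opposite to its fall in F133V coculture. Olaparib thus raised Slc40a1 in vector cells and lowered it in F133V cells, alone (-0.21 ± 0.05, adjusted p = 0.0012) and in coculture.

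The genotypes differed in their olaparib response at 6 genes alone, all negative (24.2% of all genes called), and at 9 genes in coculture, all negative (67.4% of all genes called). Under library size scaling Ftl1 (-0.09, adjusted p = 0.158) and Mt2 (-0.13, adjusted p = 0.0867) lost the call alone and Mt2 in coculture (-0.05, adjusted p = 0.488), while Fth1 alone (0.13) and Slc11a2 in coculture (0.26) were called positive. The share of called genes that were positive then went from 54.9% to 82.7% alone and from 52.6% to 65.9% in coculture. In coculture the difference was -2.57 ± 0.07 for Slc40a1 (adjusted p = 1.2e-28), -1.42 ± 0.10 for Blvrb (adjusted p = 1.1e-15) and -1.33 ± 0.08 for Slc30a1 (adjusted p = 6.3e-18). Slc11a2 was the gene not called in coculture (0.06 ± 0.06). Within F133V cells the olaparib response differed between coculture and culture alone at all 10 genes, 9 negative and 1 positive, where 64.5% of all genes were called. It was -1.65 ± 0.07 for Slc40a1, -1.35 ± 0.07 for Slc30a1, -1.05 ± 0.10 for Blvrb and -0.62 ± 0.03 for Hmox1, and 0.44 ± 0.06 for Slc11a2. Scaled by library size, 8 of the 10 were called, without Fth1 (-0.05, adjusted p = 0.163) and Mt2 (-0.04, adjusted p = 0.599). The Mt2 call was also lost with only the groups compared (adjusted p = 0.075) and without replicate 3 of F133V coculture with olaparib (adjusted p = 0.104).

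**Figure D3:**
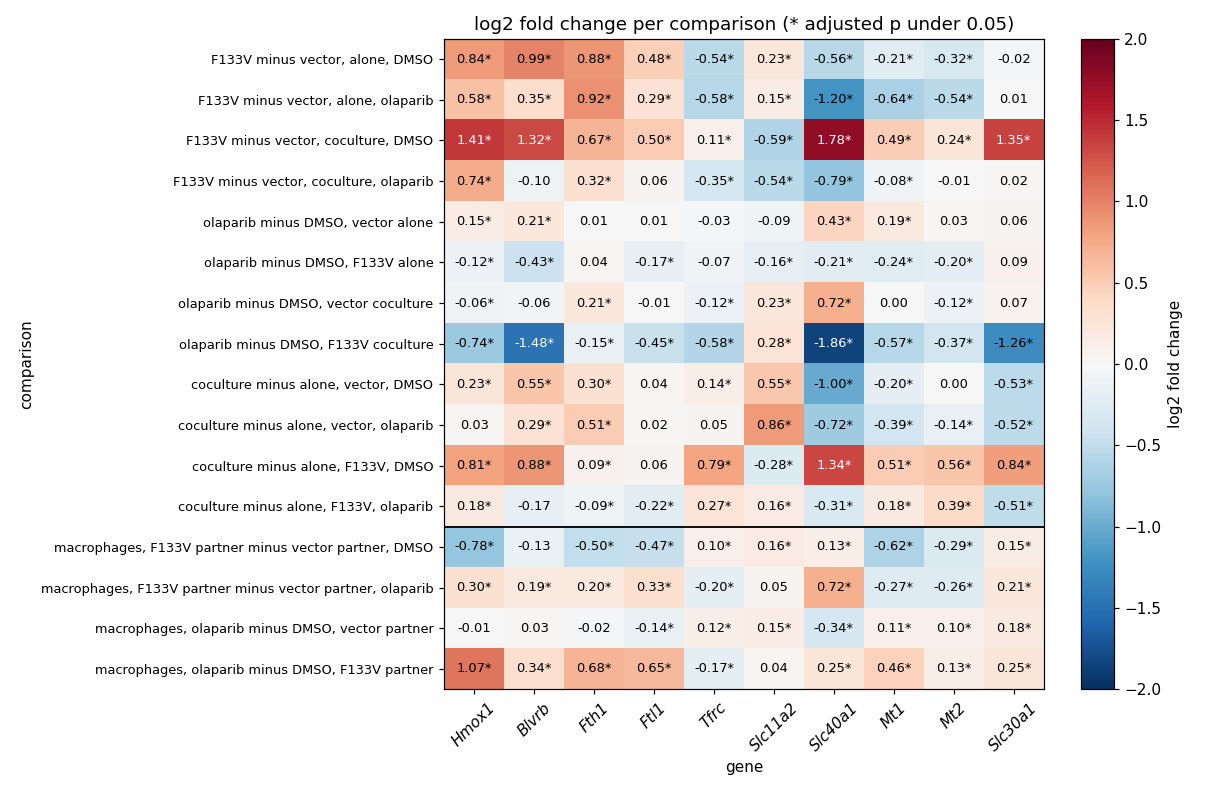
log2 fold change of each gene (columns) in the 12 cancer and 4 macrophage comparisons between pairs of groups (rows, macrophages below the line), with a star where adjusted p was under 0.05. F133V minus vector in coculture with DMSO is positive for 9 genes (1.78 for Slc40a1) and olaparib in F133V coculture negative for 9 (-1.86 for Slc40a1). With library size scaling the called values of Tfrc and Mt2 in the first of these and of Fth1 in the second change sign, as does Fth1 in F133V coculture minus alone with DMSO.

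Macrophages opposite F133V cells had lower heme oxygenase and ferritin transcripts than macrophages opposite vector cells. Hmox1 read 122, 124 and 121 CPM with the F133V partner and 209.6, 210.0 and 209.9 CPM with the vector partner, both with DMSO (-0.78 ± 0.02, adjusted p = 6.7e-35). Fth1 read 5225, 5194 and 5103 CPM against 7260, 7383 and 7276 CPM (-0.50 ± 0.01, adjusted p = 4.1e-36), and Ftl1 read 2476, 2488 and 2402 CPM against 3366, 3423 and 3385 CPM (-0.47 ± 0.01, adjusted p = 2.4e-33). No library of these 3 genes overlapped between the groups. Mt1 read 154, 153.5 and 149.7 CPM against 235, 239 and 229 CPM (-0.62 ± 0.02, adjusted p = 1.9e-31), and Mt2 was lower by -0.29 ± 0.03 (adjusted p = 7.3e-12). Slc11a2 (0.16 ± 0.03), Slc30a1 (0.15 ± 0.04), Slc40a1 (0.13 ± 0.04, adjusted p = 0.011) and Tfrc (0.10 ± 0.02) were slightly higher, with Slc40a1 at 0.10 and not called (adjusted p = 0.0809) without replicate 2 of the F133V partner group, and Blvrb was not called (-0.13 ± 0.06, adjusted p = 0.059). In all 4 were higher and 5 lower, where 53.6% of all 14262 genes were called. Of the 15 macrophage markers 4 were higher and 9 lower in this comparison, and their part in the result was not tested.

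With olaparib the partner difference turned for Hmox1, Fth1 and Ftl1. Hmox1 read 260.2, 259.7 and 251 CPM opposite F133V cells and 214, 206 and 207 CPM opposite vector cells (0.30 ± 0.02, adjusted p = 2.6e-18). Fth1 (0.20 ± 0.01, adjusted p = 4.9e-19), Ftl1 (0.33 ± 0.01, adjusted p = 2e-25), Blvrb (0.19 ± 0.06) and Slc30a1 (0.21 ± 0.04) were higher as well. Blvrb had no called difference with DMSO, and its olaparib call was lost without replicate 1 of the F133V partner group (0.15, adjusted p = 0.0636). Slc40a1 read 42.2, 40.2 and 39.4 CPM against 22.5, 27.0 and 24.6 CPM (0.72 ± 0.04, adjusted p = 1.7e-18), with no overlap. Mt1 (-0.27 ± 0.02), Mt2 (-0.26 ± 0.03) and Tfrc (-0.20 ± 0.02) were lower. In all 6 were higher and 3 lower, where 35.2% of all genes were called.

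Olaparib raised 8 of the 10 genes in macrophages opposite F133V cells and lowered 1, where 57.5% of all genes were called (median 0.30 beside 0.00 over all genes). Without regard to sign the median size was 0.296 for the 10 and 0.208 for all genes. Hmox1 went from 122, 124 and 121 CPM to 260.2, 259.7 and 251 CPM (1.07 ± 0.02, adjusted p = 2.8e-41). Fth1 went to 8220.0, 8242 and 8345 CPM (0.68 ± 0.01, adjusted p = 7.7e-42) and Ftl1 to 3830.0, 3878 and 3839 CPM (0.65 ± 0.01, adjusted p = 1.7e-39). All 3 then lay above both groups of macrophages opposite vector cells. Opposite vector cells olaparib called 5 higher and 2 lower, where 28.4% of all genes were called, and Hmox1 (-0.01 ± 0.02, adjusted p = 0.79) and Fth1 (-0.02 ± 0.01, adjusted p = 0.15) were not among them. There 1 was higher and 4 lower with library size scaling. Tfrc (0.04, adjusted p = 0.142), Mt1 (0.03, adjusted p = 0.302), Mt2 (0.02, adjusted p = 0.698) and Slc30a1 (0.10, adjusted p = 0.0564) lost the call, Hmox1 (-0.09) and Fth1 (-0.10) were called lower, and the share of called genes that were higher went from 49.1% to 14.7%. The Mt2 call was also lost with DESeq2 and without any of 3 libraries (adjusted p up to 0.267). Opposite F133V cells Mt2 rose by 0.13 on the log2 scale, and it was 0.06 and not called with library size scaling (adjusted p = 0.0784). Slc40a1 fell opposite vector cells by 0.34 ± 0.05 on the log2 scale (adjusted p = 1.4e-07) and rose by 0.25 ± 0.04 opposite F133V cells.

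The olaparib response differed between the partners at 8 genes, 6 positive and 2 negative, where 49.3% of all genes were called. It was 1.08 ± 0.03 for Hmox1 (adjusted p = 1.1e-34), 0.79 ± 0.02 for Ftl1 (adjusted p = 2.8e-36) and 0.70 ± 0.02 for Fth1 (adjusted p = 1.4e-35). Slc40a1 (0.58 ± 0.06), Mt1 (0.36 ± 0.03) and Blvrb (0.32 ± 0.08) followed, and Tfrc (-0.29 ± 0.03) and Slc11a2 (-0.11 ± 0.04) were negative. Without replicate 1 of the vector partner group with DMSO Slc11a2 was at -0.09 and not called (adjusted p = 0.0512). Mt2 (0.04 ± 0.04) and Slc30a1 (0.06 ± 0.06) were not called.

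Other metal-handling genes in macrophages went both ways between partners with DMSO, where 53.6% of all genes were called. Of 17 tested genes of iron uptake, export and control 6 were higher and 6 lower, of 18 of iron-sulfur assembly 9 and 4, of 11 of heme synthesis 5 and 1, and of 9 of heme breakdown and transport 1 and 2. Lrp1, a scavenger receptor that takes up heme bound to hemopexin, had group means of 3302 CPM opposite F133V and 5523 CPM opposite vector cells (-0.74 ± 0.01, adjusted p = 1.6e-42). The metal importer Slc39a14 (0.55 ± 0.03) and Cp (0.79 ± 0.05) were higher, and so were Cpox (0.53 ± 0.04) of heme synthesis and Fdxr (1.02 ± 0.07) of iron-sulfur assembly. Of heme handling, Blvra (-0.29 ± 0.02) and Slc48a1 (-0.31 ± 0.03) were lower and Slc46a1 (0.34 ± 0.09) was higher. Cp thus differed in the opposite direction to the cancer cells of the same cocultures, and the difference between the cell types was 3.77 ± 0.07 (adjusted p = 2.2e-44).

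Of 16 other zinc genes 8 were higher and 4 lower in these macrophages, with Slc30a5 (0.61 ± 0.03), Slc39a6 (0.55 ± 0.03) and Slc30a7 (0.27 ± 0.02) higher. Of 10 copper genes 3 were higher and 3 lower, and Atp7b, a copper-exporting ATPase, had group means of 0.58 CPM and 2.03 CPM (-1.81 ± 0.22, adjusted p = 4.9e-10). Of the 6 regulators 1 was higher and 2 were lower. Maff read 4.81 CPM against 11.1 CPM in group means (-1.20 ± 0.08, adjusted p = 1.7e-18), Nfe2l2 was lower by -0.25 ± 0.02 and Mafk higher by 0.39 ± 0.03. The list medians lay between -0.04 and 0.10, beside -0.01 over all genes. Bach1 had group means of 71.2 CPM and 69.0 CPM.

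Cancer cells and macrophages of the same cocultures were compared in a fit over all 36 libraries. In vector cocultures with DMSO macrophages were higher at 8 genes and lower at 2, where 82.2% of all 17295 genes were called. Blvrb (1.17 ± 0.07), Fth1 (1.14 ± 0.02), Ftl1 (1.13 ± 0.03), Slc11a2 (0.73 ± 0.04), Slc30a1 (0.67 ± 0.05), Hmox1 (0.53 ± 0.02) and Slc40a1 (0.50 ± 0.05) were higher in macrophages, Mt2 (-0.33 ± 0.04) and Tfrc (-0.19 ± 0.03) were lower, and Mt1 was higher by 0.07 ± 0.03 (adjusted p = 0.021) but by -0.02 with library size scaling. In F133V cocultures with DMSO macrophages were higher at 2 genes and lower at 7, where 86.3% of all genes were called. Hmox1 was then lower in macrophages by -1.59 ± 0.02 (adjusted p = 4.2e-52), Slc40a1 by -1.08 ± 0.04 (adjusted p = 3.1e-29) and Mt1 by -0.97 ± 0.03 (adjusted p = 2.6e-36). Slc30a1 (-0.47 ± 0.04) and Blvrb (-0.20 ± 0.06) were also lower in macrophages, with Blvrb at -0.06 and not called with library size scaling. The order of the cell types thus turned for Hmox1, Slc40a1 and Slc30a1. Slc11a2 (1.56 ± 0.04) and Ftl1 (0.23 ± 0.03) were higher in macrophages in F133V cocultures, Fth1 was not called (0.04 ± 0.02), and Tfrc, at -0.14 ± 0.03, was at 0.003 with library size scaling. Without replicate 1 of F133V coculture Blvrb was at -0.30, Ftl1 at 0.15 and Tfrc at -0.22, and without replicate 2 of the macrophages Ftl1 was at 0.15 and Tfrc at -0.21, all still called. Leaving out any single library of the groups compared put Fth1 at -0.039 to -0.008 in place of 0.04. For Fth1 the shift was thus not particular to the libraries that stood apart. With RLE scaling Fth1 was at -0.025, and the median over all genes in this comparison was -0.1 in place of -0.035. The moves of Blvrb, Ftl1 and Tfrc are therefore not read as particular to the libraries left out.

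The difference between the cell types in their response to the partner genotype was called for 9 genes, 1 positive and 8 negative, where 61.2% of all genes were called. This comparison was added after the values were seen. It was -2.12 ± 0.03 for Hmox1 (adjusted p = 1e-48), -1.58 ± 0.07 for Slc40a1, -1.37 ± 0.09 for Blvrb, -1.13 ± 0.07 for Slc30a1, -1.10 ± 0.03 for Fth1 and 0.83 ± 0.05 for Slc11a2, with a median of -1.07 beside 0.11 over all genes. Without regard to sign the median size was 1.073 for the 10 and 0.732 for all genes. Tfrc was not called (0.06 ± 0.04, adjusted p = 0.27). For olaparib in F133V cocultures, likewise added, the cell types differed at all 10 genes, 9 positive and 1 negative, where 58.6% of all genes were called. The difference was 2.04 ± 0.07 for Slc40a1, 1.75 ± 0.09 for Blvrb, 1.74 ± 0.03 for Hmox1 and 1.02 ± 0.04 for Ftl1, and -0.30 ± 0.05 for Slc11a2, which was -0.18 without replicate 3 of F133V coculture with DMSO. Hmox1, Fth1, Ftl1, Mt1 and Mt2 were higher with F133V in cancer cells and lower in the macrophages opposite them, with Mt2 of cancer cells at -0.01 with library size scaling. The macrophage and cancer libraries of a coculture share their medium, and the labels do not say which libraries come from the same well.

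**Figure D4:**
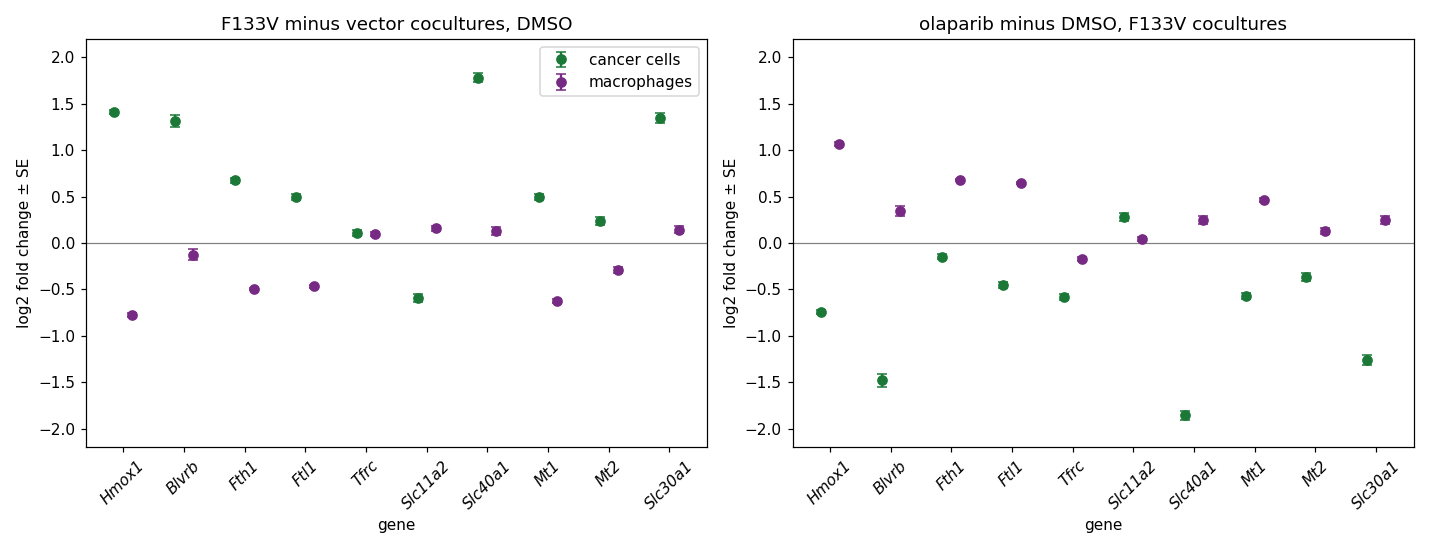
log2 fold change ± SE of each gene in cancer cells (green) and in the macrophages opposite them (purple), for F133V minus vector cocultures with DMSO (left) and olaparib minus DMSO in F133V cocultures (right), from the fits per cell type with 3 libraries a group. Hmox1 is at 1.41 in cancer cells and -0.78 in macrophages on the left, and at -0.74 and 1.07 on the right. With library size scaling Tfrc and Mt2 of cancer cells on the left and Fth1 of cancer cells on the right change sign.

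Across the 24 cancer libraries some of the 10 genes varied together. The correlation of log2 CPM was 0.89 for Slc40a1 with Mt1, 0.89 for Tfrc with Mt2, 0.87 for Hmox1 with Blvrb, 0.85 for Mt1 with Mt2 and 0.85 for Hmox1 with Fth1, and it was lowest for Slc11a2 with Slc30a1 (-0.73). Hmox1 and Slc40a1 were nearly unrelated (0.19), as were Fth1 and Slc11a2 (0.02). These coefficients describe 8 groups of 3 libraries that share treatments and scaling, not 24 independent cultures.

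The genes whose pattern was most like a member were sought among 9417 genes whose mean reached 5 CPM over the same 24 libraries. Hmox1 was closest to Brpf3 (r = 0.995), Aff4 (0.994) and Fam83g (0.992). The closest gene was Mtmr2 for Blvrb (0.977), Dnajc13 for Fth1 (0.98), Galnt7 for Tfrc (0.975), Ivns1abp for Slc40a1 (0.971), Gdpd5 for Slc11a2 (0.937), Patz1 for Mt1 (0.972), Rpl6 for Mt2 (0.941) and Lrp6 for Slc30a1 (0.966). These are descriptions over libraries in which most genes differed between groups.

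On GRCm38, Hmox1 lies at chr8:75093621-75100589, Blvrb at chr7:27447978-27466144, Fth1 at chr19:9980598-9985098, Tfrc at chr16:32608920-32632794, Mt1 at chr8:94179082-94180327, Mt2 at chr8:94172664-94173568 and Slc30a1 at chr1:191906767-191913247, all on the plus strand. Ftl1 at chr7:45457944-45459884, Slc40a1 at chr1:45908068-45926523 and Slc11a2 at chr15:100387898-100425072 are on the minus strand. Exons of Ftl1, Slc11a2, Mt2 and Slc30a1 overlap those of another annotated gene, so their counts are uncertain without a known strand setting. Ferritin pseudogenes in the files, Ftl2 and Fth-ps2, held at most 0.0486% and 0.0343% of the counts of Ftl1 and Fth1.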

How the data were processed

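RNA was measured in 24 cancer and 12 macrophage libraries. The labels' protocols name TRIzol extraction and Illumina libraries. The authors deposited raw read counts per gene for 46078 genes and 5 HTSeq summary lines per library. Per the submitters' processing notes the tools were STAR, TopHat, HTSeq and DESeq2 with build GRCm38. Versions, roles and strand setting: not given in the sources used here. Summary lines were left out: reads in no gene were 17.1% to 21.5%, ambiguous reads 1.2% to 1.36% and reads not aligned uniquely 5.48% to 7.18%. Depth limits no member, all of which passed the filter. Among 36 within-group pairs, 0 were identical and each differed by more than sampling noise; 3 libraries stood apart within their groups.

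Groups came from the labels' group entry. Their genotype entry for macrophages opposite F133V cells reads mutant with DMSO and wild type with olaparib, and it was left aside. edgeR 4.0.16 under R 4.3.3 was used with TMM, a filterByExpr minimum of 10 counts, the quasi-likelihood F test and Benjamini-Hochberg adjustment at 0.05 over all genes of a comparison, fitted per cell type (15962 and 14262 genes) and over all 36 libraries (17295 genes). An interaction is a difference between 2 log2 differences. The 25 comparisons are 18 between groups and 7 interactions, and the last 2 interactions, between cell types, were added after the values were seen. Genes, lists and comparisons were chosen with earlier results of these data known. Named from each pathway list are up to 3 genes with the smallest adjusted p in F133V minus vector coculture with DMSO or the matching macrophage comparison; Bach1 of macrophages was added after its value was seen. Likeness used Pearson correlation of log2 CPM with a prior count of 2 over 24 libraries. Some genes that these rules name are not reported here. In the check of replicate numbers, 0 of 34 pairs of groups had every correlation over 0.1 (median 0.021), so numbers were not used for pairing. Alternatives were DESeq2 1.42.0, RLE scaling, library size scaling, no filter, only the groups compared, a replicate block, each library left out, removal of 2 vector libraries with Lyz2 above 3 CPM, and ferritin pseudogene counts added. The procedure was also run on simulated data in which few genes were changed, as many up as down. That setting could not probe the scaling where most genes differ between groups. Figures used matplotlib 3.10.9 under Python 3.11.15.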

Additional observations from a re-analysis of the deposited data

Results flagged for a closer look

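Each of the following was flagged because the same contrast gave a different log2 change in 2 settings, by edgeR's test of the difference itself; values are log2 differences of differences, and groups of 3 libraries were too small for the check on single libraries. For the coculture change with DMSO, F133V minus vector cells, the values were Hmox1 0.57, Blvrb 0.33, Fth1 -0.21, Tfrc 0.65, Slc40a1 2.34, Slc11a2 -0.82, Mt1 0.71, Mt2 0.56 and Slc30a1 1.37. With library size scaling Blvrb in this set was 0.17 and not called (adjusted p = 0.155). For the olaparib change in cells alone, F133V minus vector, the values were Hmox1 -0.26, Blvrb -0.64, Ftl1 -0.18, Slc40a1 -0.64, Mt1 -0.43 and Mt2 -0.23. For the olaparib change in coculture, F133V minus vector, they were Hmox1 -0.68, Blvrb -1.42, Fth1 -0.36, Ftl1 -0.44, Tfrc -0.46, Slc40a1 -2.57, Mt1 -0.57, Mt2 -0.25 and Slc30a1 -1.33. For the olaparib change in F133V cells, coculture minus alone, they were Hmox1 -0.62, Blvrb -1.05, Fth1 -0.19, Ftl1 -0.28, Tfrc -0.51, Slc40a1 -1.65, Slc11a2 0.44, Mt1 -0.33, Mt2 -0.17 and Slc30a1 -1.35.

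In macrophages, the olaparib change opposite F133V cells minus that opposite vector cells was Hmox1 1.08, Blvrb 0.32, Fth1 0.70, Ftl1 0.79, Tfrc -0.29, Slc40a1 0.58, Slc11a2 -0.11 and Mt1 0.36. For the change with F133V in DMSO cocultures, macrophages minus cancer cells, the values were Hmox1 -2.12, Blvrb -1.37, Fth1 -1.10, Ftl1 -0.89, Slc40a1 -1.58, Slc11a2 0.83, Mt1 -1.05, Mt2 -0.46 and Slc30a1 -1.13. For the olaparib change in F133V cocultures, macrophages minus cancer cells, they were Hmox1 1.74, Blvrb 1.75, Fth1 0.75, Ftl1 1.02, Tfrc 0.33, Slc40a1 2.04, Slc11a2 -0.30, Mt1 0.96, Mt2 0.43 and Slc30a1 1.44. The last 2 sets were added after the values were seen. With library size scaling Ftl1 and Mt2 in the olaparib change alone, Mt2 in that in coculture, and Fth1 and Mt2 in coculture minus alone were not called. The cause of these differences was not tested.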

How the results depend on the processing

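The number of the 10 genes called stayed within 1.5 times of its reported value under every alternative run, except for olaparib in vector coculture, where leaving out 1 library gave 3 to 5 in place of 6. For single genes, 208 of the 250 gene and comparison pairs were called. Of these, 12 lost the call when some library was left out, and 26 lost it or changed sign under another setting. The number of all genes called for olaparib in vector cells alone was 2952 in place of 4857 without the 2 libraries with Lyz2 above 3 CPM. The replicate block changed 1 call, Fth1 of macrophages minus cancer cells in F133V coculture (0.04, adjusted p = 0.0428), and no other. Fits of only the groups compared were not run for the macrophage interaction, which already uses all 4 groups.

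Called values changed sign only with library size scaling: Mt2 (-0.015) and Tfrc (-0.144) in F133V minus vector coculture with DMSO, Fth1 with coculture in F133V cells with DMSO (-0.117), Fth1 with olaparib in F133V coculture (0.060), and for macrophages minus cancer cells Mt1 in vector coculture (-0.023) and Tfrc in F133V coculture (0.003). That scaling moved the share of called genes that were higher by over 10 percentage points in 16 comparisons, among them from 47.1% to 34.7% for F133V minus vector coculture with DMSO, from 51.5% to 63.5% for olaparib in F133V coculture, and from 49.1% to 14.7% for olaparib in macrophages opposite vector cells. The cause was not tested.

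Values not called also changed sign. With library size scaling these were Slc30a1 in F133V minus vector coculture with olaparib (-0.025), Ftl1 with coculture in F133V cells with DMSO (-0.149) and in vector cells with DMSO (-0.010) and olaparib (-0.006), Ftl1 in genotype by coculture (-0.139), Slc11a2 (0.020) and Tfrc (0.058) in genotype by olaparib alone, Slc11a2 (-0.025) and Blvrb (-0.055) with olaparib in macrophages opposite F133V and vector cells, Tfrc with olaparib in F133V cells alone (0.008), and Fth1 (-0.019) and Ftl1 (-0.009) with olaparib in vector cells alone. With DESeq2 and with RLE scaling alike, Mt2 in F133V minus vector coculture with olaparib was 0.001, Tfrc in cell type by partner genotype -0.011, Ftl1 with coculture in vector cells with olaparib -0.001 and Fth1 of macrophages minus cancer cells in F133V coculture -0.025. With no filter Ftl1 in genotype by coculture was -0.016 and Hmox1 with olaparib in macrophages opposite vector cells 0.002. Without the libraries with Lyz2 above 3 CPM, Ftl1 in genotype by coculture was -0.021, Tfrc in genotype by olaparib alone 0.058 and Slc30a1 with olaparib in vector cells alone -0.058.

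With each library left out, uncalled values that changed sign ranged as follows. In macrophages opposite vector cells olaparib changed Blvrb by -0.014 to 0.063 and Hmox1 by -0.024 to 0.004, and Mt2 in partner by olaparib ranged from -0.011 to 0.085. In vector cells alone olaparib changed Fth1 by -0.009 to 0.018, Ftl1 by -0.002 to 0.023 and Tfrc by -0.058 to 0.023, and in vector coculture Mt1 by -0.011 to 0.022. Slc30a1 in F133V minus vector cells ranged from -0.062 to 0.040 alone with DMSO, -0.029 to 0.043 alone with olaparib and -0.042 to 0.083 in coculture with olaparib, where Mt2 ranged from -0.051 to 0.057. In genotype by olaparib alone Slc30a1 ranged from -0.026 to 0.076 and Tfrc from -0.090 to 0.005, Tfrc in cell type by partner genotype from -0.021 to 0.080, and Fth1 of macrophages minus cancer cells in F133V coculture from -0.039 to -0.008 over its 6 left-out libraries.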
